A study of Mus musculus with 39 samples.

Results

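Whole regenerating muscle 7 days after injury was compared between mice depleted of γδ T cells and toxin-treated wild-type mice, over every gene with enough reads to be tested. The members were the genes with at least 10 counts in at least 2 of the 5 day 7 libraries, which were 14601 of 55011 gene symbols in the table. No measured difference between the groups entered that choice. Wild-type mice (WT, n = 3) and Tcrd-DTR mice (DTR, n = 2) had all received diphtheria toxin by intraperitoneal injection and a cardiotoxin injury of the hindlimb muscle, and the tissue was the tibialis anterior. Tcrd-DTR mice carry the diphtheria toxin receptor under the T cell receptor delta locus, so the toxin removes γδ T cells as a whole and not only the subset that makes interleukin 17A (IL-17A). Both genotypes of the same design were also sampled at days 1, 3 and 14 (n = 3 per group). A separate pair of day 7 groups were wild-type mice with the same injury injected with phosphate-buffered saline (PBS, n = 2) or with the recombinant cytokine (rIL-17A, n = 2) by intraperitoneal and intramuscular routes, with no toxin in their labels. Each library was made from 2 ng of polyA RNA. Age, sex and the timing of the injections were not given in the sources used here.

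Cardiotoxin, a component of cobra venom, lyses muscle fibres but spares satellite cells, the stem cells of muscle. Monocytes and macrophages clear the debris, first in an inflammatory and later in a repair state, while satellite cells divide, differentiate and fuse into new fibres that pass through embryonic and neonatal myosins. γδ T cells that carry the Vγ6 chain are a tissue-resident lineage known for secreting IL-17A and IL-17F, which act on stromal and epithelial cells through the receptor chains IL-17RA and IL-17RC. Levels below are counts scaled to library size (CPM) by the TMM method unless stated otherwise, changes are log2 ratios of DTR over WT, and a gene is said to have risen or fallen where the adjusted p of edgeR's quasi-likelihood test was under 0.05. In bulk tissue, fewer cells of a type and less RNA per cell cannot be told apart.

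Stat2 and Xaf1, both members of the list of interferon-stimulated genes, were among the genes that rose, and their promoters are shown beside that of Isg15, the 1 gene of that list with a negative change. Isg15 was chosen for this after its value was seen. Each sequence is the 250 bases before the RefSeq start site (GRCm38.p6), written 5′ to 3′ on the strand of the gene. Capitals mark 2 copies of the letters GAAA with any 2 bases between them, on either strand, the core of the interferon-stimulated response element.
Stat2: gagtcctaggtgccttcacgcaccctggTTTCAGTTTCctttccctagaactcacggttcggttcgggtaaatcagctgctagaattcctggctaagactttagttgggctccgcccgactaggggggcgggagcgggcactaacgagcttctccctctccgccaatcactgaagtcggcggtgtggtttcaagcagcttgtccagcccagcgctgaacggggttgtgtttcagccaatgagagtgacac
Xaf1: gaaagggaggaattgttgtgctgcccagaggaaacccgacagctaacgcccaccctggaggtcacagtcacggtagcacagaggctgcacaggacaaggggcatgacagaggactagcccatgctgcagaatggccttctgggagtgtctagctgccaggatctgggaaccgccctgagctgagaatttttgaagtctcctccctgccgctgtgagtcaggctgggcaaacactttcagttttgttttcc
Isg15: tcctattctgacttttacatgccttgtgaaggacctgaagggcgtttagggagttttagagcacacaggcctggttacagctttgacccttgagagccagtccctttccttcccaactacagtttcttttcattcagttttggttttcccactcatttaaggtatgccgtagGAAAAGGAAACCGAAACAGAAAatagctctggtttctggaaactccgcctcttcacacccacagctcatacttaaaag
The windows are chr10:128270248-128270497 on the plus strand for Stat2, chr11:72301379-72301628 on the plus strand for Xaf1 and chr4:156200819-156201068 on the minus strand for Isg15. The Stat2 window held 1 match, which begins 222 bases before the start site and lies on the opposite strand. The Isg15 window held 3 matches that overlap one another, and the Xaf1 window held none. Of all 32851 windows of that length 2.98% held a match, and by gene 3.46% of 27025 did, beside 9 of the 14 interferon-list genes with a window (64.3%). Among genes that rose at day 7 the share was 3.54% (4 of 113 with a window), among those that fell 1.56% (4 of 257) and among all members 3.21%.

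The 5 libraries held 7031474 to 10974862 counts. The receptor genes of γδ T cells were too scarce in whole muscle to check the depletion. Trdc, the constant region of the delta chain, had 2, 1 and 8 counts in the WT libraries and 0 in both DTR libraries, where a count of 0 allows up to 0.314 and 0.273 CPM. The 6 receptor genes together had 3, 2 and 20 counts in WT and 0 and 2 in DTR, with an exact permutation p of 0.5 (2-sided, where 0.1 is the smallest that 3 against 2 libraries allow, so that no difference could pass). Il17f had 3, 5 and 2 counts in WT and 0 in both DTR libraries, and Il17a had 1 count in all. WT library 3 stood apart from the other day 7 libraries, with counts in 34392 genes against 21496 to 27437, and with 1383 unscaled CPM over olfactory and vomeronasal receptor genes against 92.1 to 543. These receptors are best known from sensory neurons of the nose. Their sum was higher in each WT library than in either DTR library (267, 543 and 1383 against 146 and 92.1, exact permutation p = 0.2, 2-sided). DTR library 2 stood apart in another way, with 2205 unscaled CPM over 15 general macrophage genes, while DTR library 1 had 582 and the WT libraries 691 to 1159.

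**Figure D1:**
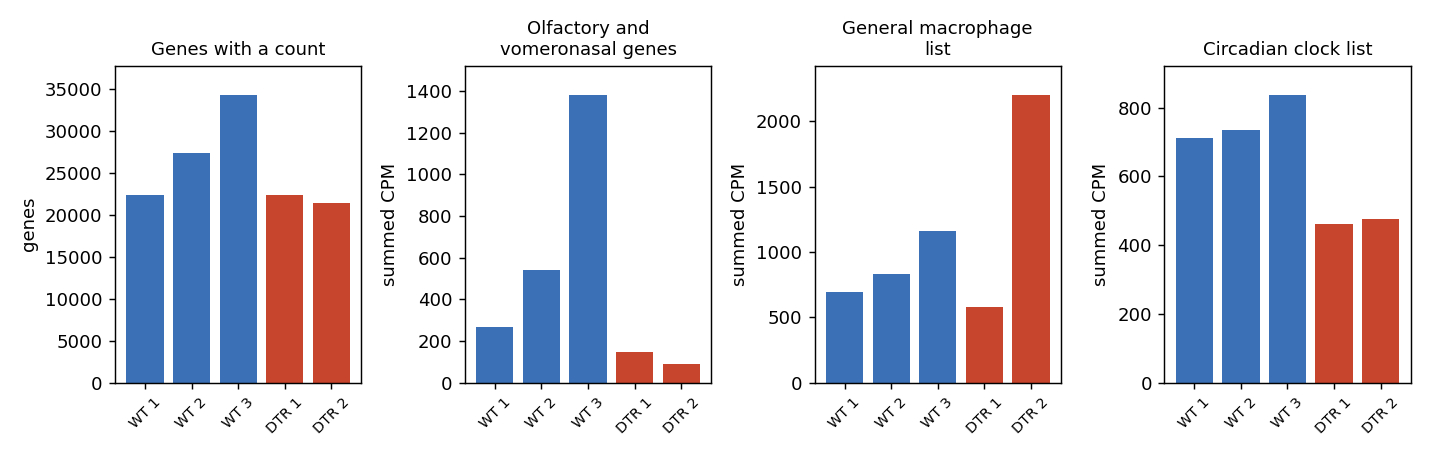
Number of genes with at least 1 count and summed CPM (unscaled) of 3 gene groups, 1 bar per day 7 library, WT in blue and DTR in red. WT library 3 has the most genes detected (34392) and the highest olfactory and vomeronasal sum (1383), DTR library 2 the highest macrophage sum (2205), and both DTR libraries lie below all WT libraries for the clock list (461 and 476 against 711 to 838).

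Removal of γδ T cells went with a difference in 498 genes at day 7, 3.41% of those tested, of which 145 (0.993%) rose and 353 (2.42%) fell. Genes that rose were led by the myeloid genes Ms4a4c and Ccl12, the nucleotidase-like gene Nt5dc2 and the replication helicase subunit Mcm5. Genes that fell were led, by the strength of the test, by Prrc2a, Lypla2, Rab5b and Zbtb38. The rises were moderate, from 0.63 to 3.03 with a median of 1.08, and none of these genes was without a count in WT. The 261 falls with over 3 counts in the DTR libraries together ranged from -4.58 to -0.67 with a median of -1.33, beside a median of 0.06 over all genes tested. The other 92 falls rested on almost no DTR reads, since 50 genes had no count in either DTR library and 42 had 1 to 3. Of the members, 874 had under 10 counts in both DTR libraries and 90 had under 10 in every WT library, so they entered through 1 group alone. Of the 353 falls 123 were such genes, under 10 counts in both DTR libraries. Groups did not overlap for 4687 genes (32.1%). Counts depended on single libraries. Without DTR library 2, 4 genes rose and 39 fell, where the lone remaining DTR library is assumed to vary like the other groups, and without WT library 3, 29 rose and 150 fell. Of 68 called genes chosen by rule for a closer account, 56 lost their call without DTR library 2, 38 without WT library 3, 21 without WT library 2, 17 without DTR library 1 and 6 without WT library 1. A fit of the 5 day 7 libraries alone lost 49 of these calls, and the replicate number as a block lost 41. The 12 that held without DTR library 2 were Mcm5 alone among the rises and Prrc2a, Lypla2, Rab5b, Zbtb38, Map3k1, Impdh1, Slc39a1, Atg9a, Anxa11, Sesn2 and Gk among the falls. All 498 changes kept their direction when any 1 of the 5 libraries was left out. Groups did not overlap for 141 of the 145 rises and 342 of the 353 falls, so leaving out a library could hardly reverse these.

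**Figure D2:**
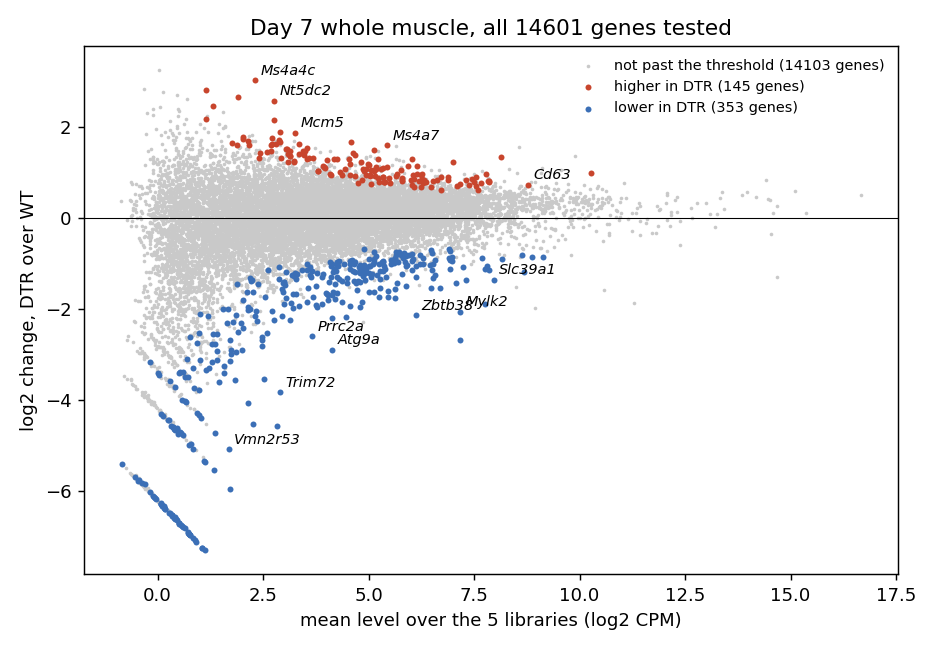
Log2 change (DTR over WT) against the mean level over the 5 libraries (log2 CPM), 1 point per gene tested, with the 145 genes that rose in red, the 353 that fell in blue and the rest in grey. The rises stay within 3.03, while the falls reach further down at low levels, where the diagonal lines are genes with 0 or 1 to 3 counts in the DTR libraries.

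Several of the genes with the largest rises are known from monocytes and macrophages. Ms4a4c, a membrane protein of myeloid cells (chromosome 19, 11404770 to 11427246 in mm10), was at 0.373, 1.41 and 1.94 CPM in WT and at 6.86 and 14.4 in DTR, a change of 3.03 (SE 0.64, adjusted p = 0.0101). Ccl12, a chemokine that draws monocytes through CCR2, was at 0.933, 1.54 and 1.05 CPM in WT and at 5.45 and 9.82 in DTR, a change of 2.66 (SE 0.48, adjusted p = 0.00187). Both DTR libraries were above all WT libraries for each gene, including DTR library 1, whose macrophage sum was the lowest of the 5. Genes named as the largest rises had to have groups without overlap, so this order was part of their choice. Other myeloid genes followed DTR library 2 more closely. Ms4a6c was at 1.49, 3.46 and 3.58 CPM in WT and at 4.21 and 21.4 in DTR. Ms4a7, a marker of resident and repair macrophages, was at 27.1, 25.1 and 19.3 CPM in WT and at 38.2 and 106 in DTR. Fcgr2b, the inhibitory receptor for immunoglobulin G, was at 7.46, 17.4 and 13.3 CPM in WT and at 20.7 and 61.6 in DTR. In all 3 genes the first DTR library lay just above the highest WT library and the second far above it, with changes of 2.15, 1.61 and 1.68. Cd63, a tetraspanin of lysosomes and exosomes, was even in the DTR libraries, at 550 and 602 CPM against 369, 349 and 318 in WT (change 0.74, SE 0.19, adjusted p = 0.0268). Igf1, a growth factor for regenerating fibres made by macrophages and stroma, rose by 0.96 with overlapping groups, at 57.1, 66.1 and 40.8 CPM in WT and 64.3 and 148 in DTR. Every call in this paragraph was lost without DTR library 2, and those of Ms4a6c, Ms4a7, Fcgr2b, Cd63 and Igf1 also without WT library 3.

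Macrophage lists as wholes gave fewer calls than these single genes. Of the 26 repair macrophage genes tested, of 29 in the list, Ms4a7, Cd63 and Igf1 rose and none fell, with a median change of 0.22. None of the 15 general macrophage genes passed, although 13 were above 0 and their median was 0.71, beside 54.2% above 0 among all genes tested. Fcer1g, the signalling chain of activating Fc receptors, came nearest, at 48.0, 58.5 and 55.6 CPM in WT and 63.3 and 176 in DTR (adjusted p = 0.0595). Adgre1, which encodes the macrophage marker F4/80, was at 17.2, 24.5 and 34.9 CPM in WT and 22.3 and 37.5 in DTR, with overlapping groups, and its change of 0.23 turned to -0.20 without DTR library 2. Of 15 chemokine genes tested Ccl12 alone rose and 14 were above 0, with a median of 0.87. Among lymphocyte lists, Cd79b, the signalling chain of the B cell receptor, rose from 0.746, 0.385 and 1.49 CPM in WT to 3.74 and 6.08 in DTR, as the 1 call among 4 B cell genes tested. None of the 4 αβ T cell genes, 5 cytotoxic genes or 7 neutrophil genes tested passed.

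Interferon-stimulated and proteasome genes were mostly above 0, with few calls each. Of 20 interferon-stimulated genes 2 rose and 19 were above 0, with a median of 0.84 that fell to 0.59 without WT library 3. Of all genes tested 0.993% rose and 54.2% were above 0. Stat2, which carries the type I interferon signal to the nucleus, was at 13.8, 10.1 and 8.36 CPM in WT and 25.4 and 20.9 in DTR (change 1.11, SE 0.31, adjusted p = 0.0422). Xaf1, an interferon-induced regulator of apoptosis, was at 19.2, 14.5 and 11.1 CPM in WT and 26.3 and 36.9 in DTR (change 1.09, SE 0.31, adjusted p = 0.0479). The exception was Isg15, the ubiquitin-like modifier with 3 matches in its promoter window, at 8.77, 7.82 and 6.12 CPM in WT and 3.27 and 4.32 in DTR (change -0.98, adjusted p = 0.295). Isg20, an interferon-induced exonuclease outside that list, rose by 1.72 (SE 0.38, adjusted p = 0.0112) from 5.22, 4.36 and 1.94 CPM in WT to 12.6 and 12.7 in DTR. It was named by the rule for the largest rises, which takes only genes whose groups do not overlap. All 19 proteasome genes were above 0 and 3 rose, with a median of 0.49. Psmb8, the interferon-inducible catalytic subunit of the immunoproteasome, was at 34.9, 32.2 and 21.4 CPM in WT and 61.4 and 67.5 in DTR, a change of 1.13. The 20S core subunit Psma4 rose by 0.63, from 155 to 161 CPM in WT to 256 and 234 in DTR. Psmd14, the deubiquitinase of the 19S lid, rose by 0.77, with WT at 190, 125 and 158 CPM and DTR at 282 and 253. Groups did not overlap for the 6 called genes, as for 141 of the 145 rises, so this order came largely with being called. The interferon-stimulated list summed to 368, 326 and 225 unscaled CPM in WT and 384 and 574 in DTR. All 6 calls were lost without WT library 3 and without DTR library 2.

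Single genes of dividing cells rose. Mcm5, a subunit of the helicase that opens DNA for replication, was at 6.90, 4.23 and 2.84 CPM in WT and at 20.3 and 13.7 in DTR (change 1.88, SE 0.36, adjusted p = 0.0034). It was the sole call among 27 DNA replication genes, of which 22 were above 0, and it kept its call when any 1 library was left out but not in a fit of the 5 day 7 libraries alone. Of 27 mitosis genes Ccnb1 and Mki67 rose and 22 were above 0, with a median of 0.51, beside 54.2% above 0 among all genes tested. Ccnb1, the cyclin that drives entry into mitosis, was at 3.17, 1.15 and 3.14 CPM in WT and 5.92 and 9.0 in DTR. Mki67, the common marker of cycling cells, was at 7.28, 3.33 and 5.08 CPM in WT and 10.9 and 17.6 in DTR. Both changes, 1.61 and 1.48, lost their calls without DTR library 2 and without WT library 2, and that of Mki67 without WT library 3. Nt5dc2, which had the third largest rise of the named genes, was at 1.31, 4.62 and 0.597 CPM in WT and 10.8 and 16.5 in DTR (change 2.59, SE 0.48, adjusted p = 0.00273). Rpl3, a protein of the large ribosomal subunit, was the 1 call among 30 cytosolic ribosomal protein genes, 29 of which were above 0. Cdkn1c, an imprinted inhibitor of the cell cycle that is also induced as myoblasts differentiate, rose by 1.30 from 31.5, 21.0 and 18.1 CPM in WT to 46.6 and 68.7 in DTR. The calls of Nt5dc2, Rpl3 and Cdkn1c were lost without DTR library 2, and those of Rpl3 and Cdkn1c also without WT library 3.

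The regulators of myogenesis did not pass the test. None of 18 satellite cell and myoblast regulators rose or fell. Pax7, which marks satellite cells, was at 4.67, 5.39 and 2.99 CPM in WT and 9.19 and 4.91 in DTR. Myod1 was at 62.7, 70.8 and 54.8 CPM in WT and 59.0 and 79.3 in DTR, and Myog, which turns on at differentiation, was at 215, 127 and 108 CPM in WT and 141 and 177 in DTR. Groups overlapped for all 3, and the changes of Myod1 (0.14) and Myog (0.08) changed sign under other settings. Embryonic and immature fibre genes were above 0 for 14 of 16, beside 54.2% of all genes tested, with a median of 0.58 and no call. Myh3, embryonic myosin, was at 303, 246 and 114 CPM in WT and 343 and 590 in DTR, a change of 1.08 with an SE of 0.55 (adjusted p = 0.289). Myh8, neonatal myosin, was at 790, 699 and 247 CPM in WT and 875 and 2117 in DTR, a change of 1.37 (SE 0.48, adjusted p = 0.114). The groups did not overlap for either gene, but the spread within them was as wide as the gap. Myh4, the adult IIb myosin, was the most abundant of these at 10970 to 16996 CPM in WT and 16552 and 23538 in DTR, with overlapping groups.

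Stromal and lipid genes gave single calls. Mfap5, a microfibril protein of fibro-adipogenic progenitors, was at 83.2, 106 and 60.6 CPM in WT and 136 and 255 in DTR, a change of 1.23, and was the 1 call among 18 genes of that list. Snai2, a transcription factor of mesenchymal cells, rose by 1.76 from 2.99, 3.85 and 3.14 CPM to 6.86 and 15.8. None of 20 collagens or 33 matrix genes passed. Of these 15 collagens (median 0.36) and 24 matrix genes (median 0.38) were above 0, beside 54.2% of all genes tested. Col1a1 was at 691 and 1696 CPM in the DTR libraries, below and within the WT range of 1180 to 1757, and Postn, a matricellular protein of healing tissue, was at 240, 272 and 122 CPM in WT and 307 and 952 in DTR (adjusted p = 0.0778). Of 20 triglyceride genes 2 rose and 2 fell, where 0.993% of all genes tested rose and 2.42% fell. Angptl4, an inhibitor of lipoprotein lipase, rose from 23.1, 14.6 and 8.81 CPM to 31.3 and 49.8, and the desaturase Scd2 from 28.0, 35.8 and 19.3 to 54.7 and 64.9. Dgat2, which makes triglyceride, fell from 59.2, 40.4 and 54.1 CPM to 21.7 and 19, and Lipe, the hormone-sensitive lipase, from 21.6, 12.7 and 14.3 to 8.72 and 5.73. The fatty acid carrier Fabp4 rose by 0.91, and the short-chain acyl-CoA dehydrogenase Acads fell by 1.06 on the log2 scale. All these calls were lost without DTR library 2, and those of Mfap5, Snai2, Angptl4, Scd2 and Fabp4 also without WT library 3.

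**Figure D3:**
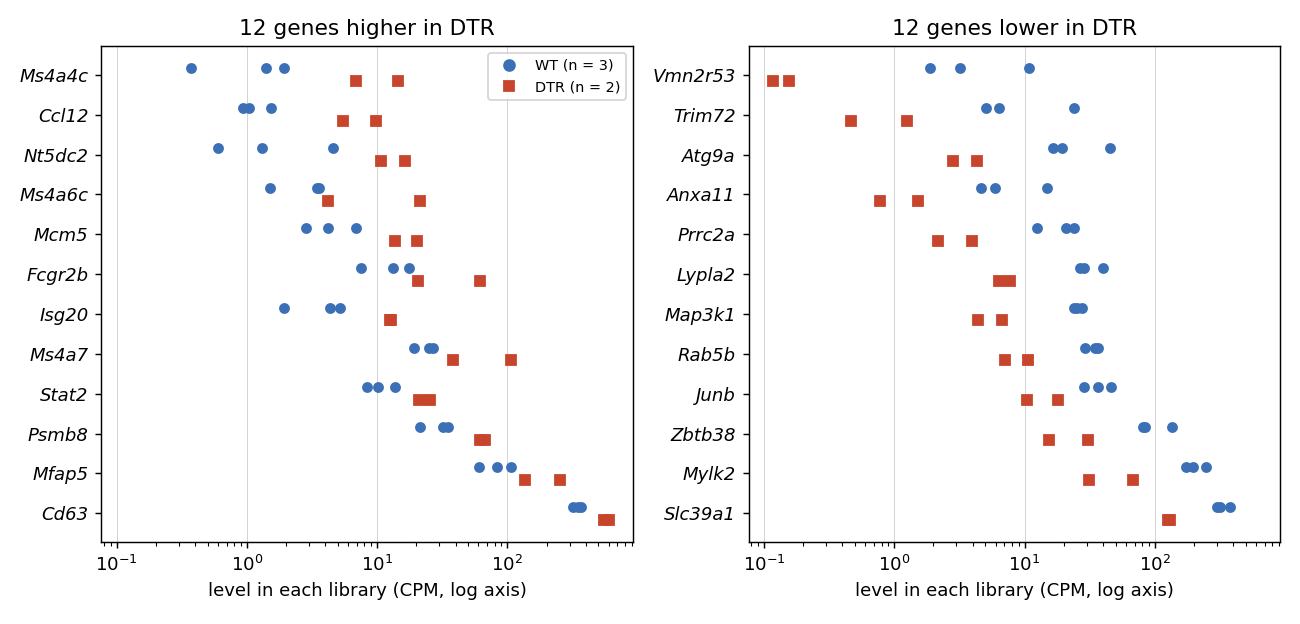
Level in each day 7 library (CPM, log axis) of 12 genes that rose (left) and 12 that fell (right), with circles for the 3 WT libraries and squares for the 2 DTR libraries. The groups do not overlap for any gene shown, and DTR library 2 lies far above DTR library 1 for Ms4a6c (21.4 against 4.21), Fcgr2b (61.6 against 20.7) and Ms4a7 (106 against 38.2). The rule for the largest changes, which named some of these genes, takes only genes without overlap.

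The falls with the smallest p included several widely expressed genes. Prrc2a, which encodes a proline-rich protein that binds RNA (chromosome 17, 35149076 to 35164897 in mm10), was at 12.5, 20.8 and 24.2 CPM in WT and 2.18 and 3.97 in DTR (change -2.61, SE 0.29, adjusted p = 1.06e-05). Lypla2, an enzyme that removes palmitate from proteins, was at 26.5, 28.7 and 40.3 CPM in WT and 7.79 and 6.43 in DTR (change -2.17, SE 0.26, adjusted p = 1.31e-05). Rab5b, a GTPase of early endosomes, was at 29.1, 36.4 and 34.9 CPM in WT and 10.6 and 7.13 in DTR (change -1.93, SE 0.24, adjusted p = 4.12e-05). In each case the lowest WT library was well above the highest DTR library. Zbtb38, a zinc finger protein that binds methylated DNA, was at 136, 80.9 and 83.8 CPM in WT and 30.7 and 15.3 in DTR. Map3k1, a kinase upstream of JNK, was at 23.9, 27.6 and 25.1 CPM in WT and 4.36 and 6.66 in DTR. Impdh1, an enzyme of guanine nucleotide synthesis, was at 24.3, 24.6 and 24.0 CPM in WT and 7.63 and 7.48 in DTR. The WT libraries differed little among themselves for the last 2 genes, WT library 3 included. Slc39a1, a zinc importer, was the most abundant, at 298, 377 and 315 CPM in WT and 127 and 130 in DTR (change -1.36). These 7 genes kept their calls under all 14 alternatives tried, as did Atg9a.

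Many falls were of genes with low levels that were highest in WT library 3. Of the 353 genes that fell, WT library 3 was the highest WT library for 199 (56.4%), against 31.7% of all genes tested. Of 96 olfactory or vomeronasal receptor genes tested 17 fell and none rose, where 2.42% of all genes tested fell and 0.993% rose. Vmn2r53, a vomeronasal receptor, had 10, 25 and 72 counts in WT and 1 in each DTR library, a ratio of 40.4 with a 95% interval of 10.9 to 338 that covers counting error only. Olfr620, an olfactory receptor, was at 1.49, 7.44 and 12.2 CPM in WT and at 0.467 and 0.351 in DTR. Dnah8 and Hydin, which build the moving axoneme of cilia and sperm tails, and Ryr2, the ryanodine receptor of the heart, had the same order, with WT library 3 highest (9.26, 8.96 and 10.3 CPM), WT library 1 lowest (2.05, 2.05 and 1.68) and both DTR libraries at 1.09 or below. Podxl2, a sialomucin, ran from 0.746 CPM in WT library 1 to 26.0 in WT library 3, against 0.312 and 0.584 in DTR. Hydin, Ryr2, Podxl2 and Olfr620 lost their calls without WT library 3, and all 6 of these genes did so without DTR library 2. Other large falls had another order, and Gk, glycerol kinase, was lowest of the WT libraries in WT library 3, at 7.28, 5.13 and 4.33 CPM in WT and 0 and 1.29 in DTR. The part of the WT library 3 signal in these falls was not tested beyond that.

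Single genes of muscle fibres fell, from lists whose other members did not pass. Of 28 fast fibre genes 21 were above 0 with a median of 0.16, of 18 genes of the dystrophin complex and membrane repair 13 were above 0 with a median of 0.29, and of 14 neuromuscular junction genes 6 were above 0 with a median of -0.10. Among all genes tested 54.2% were above 0. Trim72, which encodes the membrane repair protein MG53 (chromosome 7, 128003949 to 128011033 in mm10), was at 5.04, 6.41 and 24.2 CPM in WT and 1.25 and 0.467 in DTR (change -3.83, SE 0.61, adjusted p = 0.00086), the 1 call in the dystrophin and repair list. Trim72 became a member through WT alone, since both DTR libraries had under 10 counts of it. WT library 3 was again the highest. The other WT libraries were also above both DTR libraries, an order that the rule for the largest falls required. The call of Trim72 held without WT library 3 but not without DTR library 2. Mylk2, the kinase of fast myosin light chains, was at 174, 195 and 249 CPM in WT and 67.8 and 31.4 in DTR (change -2.06, SE 0.44, adjusted p = 0.0134), the 1 call in the fast fibre list. Lrp4, the agrin receptor and the 1 call in the junction list, was at 17.4, 23.2 and 26.9 CPM in WT and 8.10 and 10.2 in DTR. Atp2a1, the calcium pump of fast fibres, was at 34781, 29971 and 37457 CPM in WT and 16468 and 11422 in DTR and missed the threshold (adjusted p = 0.0856). The 2 DTR libraries were below all WT libraries for each of these 4 genes, as they were for 342 of the 353 genes that fell. Slc16a3, the lactate exporter of glycolytic fibres, was at 260, 256 and 406 CPM in WT and 124 and 42.4 in DTR, and Hk1, a hexokinase, at 11.4, 22.7 and 14.9 CPM in WT and 7.95 and 5.61 in DTR. They were the 2 calls among 24 glycolysis and glycogen genes, of which 13 were above 0 with a median of 0.05. Mylk2, Lrp4, Slc16a3 and Hk1 lost their calls without WT library 3 and without DTR library 2.

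Further falls were of single genes with different roles. Atg9a, the lipid scramblase that feeds the growing autophagosome, was at 16.6, 19.2 and 45.1 CPM in WT and 2.80 and 4.32 in DTR (change -2.89, SE 0.48, adjusted p = 0.00181). None of the 15 genes of the autophagy list passed, and 9 were above 0, beside 54.2% of all genes tested. Anxa11, an annexin that binds calcium and phospholipid, was at 5.97, 4.62 and 14.9 CPM in WT and 0.779 and 1.52 in DTR. Cers1, the ceramide synthase of muscle and brain, fell by 2.69, Lbh, a transcriptional cofactor, by 2.62 and Gk by 2.95 on the log2 scale. Of 18 cell cycle inhibitors and p53 targets 2 fell and 10 were above 0. Mdm2, the ubiquitin ligase of p53, fell from 72.0, 52.1 and 57.5 CPM to 30.7 and 29.9, and Sesn2, a stress sensor of the mTORC1 pathway, from 1.49, 5.39 and 2.09 to 0 and 0.935. Nos2, the inducible nitric oxide synthase, had 9, 25 and 13 counts in WT and 1 and 2 in DTR, a ratio of 11.8 with a 95% counting interval of 3.80 to 59.4. It was the 1 call among 9 inflammatory monocyte genes, of which 6 were above 0. Nos2, Sesn2, Vmn2r53, Olfr620, Dnah8, Hydin, Ryr2, Podxl2 and Trim72 reached 10 counts in WT libraries alone. Cers1, Lbh, Mdm2 and Nos2 lost their calls without DTR library 2, and Gk, Sesn2, Cers1 and Nos2 without DTR library 1.

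Some transcription factors of the early response and of the clock fell. Junb was at 28.6, 36.9 and 46.1 CPM in WT and 17.9 and 10.5 in DTR (change -1.40, SE 0.26, adjusted p = 0.00241), and Jun at 61.4, 67.1 and 61.8 CPM in WT and 34.9 and 40.7 in DTR (change -0.75). Fos, their partner in the AP-1 dimer, moved the other way, from 5.41, 2.44 and 3.73 CPM in WT to 5.92 and 15 in DTR (change 1.47, SE 0.40, adjusted p = 0.0374). These 3 were the calls among 17 immediate early genes tested. Of 17 clock genes 2 fell and 13 were below 0, with a median of -0.33. Of all genes tested 2.42% fell and 54.2% were above 0. Bhlhe40 and Bhlhe41, repressors that oppose CLOCK and BMAL1, were at 85.6 to 130 and 177 to 242 CPM in WT, against 50.9 and 55.9, and 99.1 and 64.2, in DTR. The clock list summed to 711, 734 and 838 unscaled CPM in WT and 461 and 476 in DTR. Of 15 genes of the glucocorticoid and atrophy response, Trim63 and Zbtb16 fell and Glul, glutamine synthetase, rose. Trim63, the ubiquitin ligase MuRF1 of sarcomere breakdown, was at 111, 105 and 154 CPM in WT and 66.7 and 37.2 in DTR. Zbtb16, which encodes PLZF, a factor also known from innate-like T cells, was at 6.90, 7.57 and 8.06 CPM in WT and 1.71 and 1.40 in DTR. Each of these calls was lost without DTR library 2, and those of Fos, Jun, Glul and Trim63 also without WT library 3. Hours of tissue collection were not given in the sources used here.

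No tested gene of the IL-17 pathway passed. Of 12 classical IL-17 response genes tested, of 23 in the list, none rose or fell. Of these 4 were above 0, beside 54.2% of all genes tested, with a median of -0.18. Cxcl2, Cxcl5, Ccl20, Il6 and Lcn2 were among those with too few reads to be tested, so nothing can be said of them. Of 11 ligand and receptor genes 5 were tested, Il17a and Il17f not among them. Ccl2, a monocyte chemokine, was at 3.55, 3.59 and 1.34 CPM in WT and 3.12 and 11.1 in DTR. Mmp3, a matrix metalloproteinase, was at 16.8, 18.9 and 17.6 CPM in WT and 15.9 and 46.7 in DTR. For both genes DTR library 1 lay within or below the WT range and DTR library 2 above it. Of these 5 genes 3 were above 0, with a median of 0.15. Il17re, the gene of that list with the smallest p, was low, at 2.99, 1.67 and 2.69 CPM in WT and 0.312 and 0.584 in DTR. Its groups did not overlap, and its change was -2.35 (SE 1.14, adjusted p = 0.25). Il17rc, a subunit of the receptor for IL-17A and IL-17F, was at 11.4, 7.95 and 5.82 CPM in WT and 4.83 and 6.66 in DTR. None of the 32 respiratory chain and ATP synthase genes passed either, although 29 were above 0 with a median of 0.31. Cycs, cytochrome c, was the nearest, at 426, 352 and 261 CPM in WT and 625 and 503 in DTR (adjusted p = 0.0704).

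More genes passed the test between genotypes at day 7 than at the other days. In the same fit 0 genes passed at day 1 and at day 3 with edgeR (584 and 722 at an unadjusted p under 0.05) and 16 at day 14 (0.11%), 9 higher (0.0616%) and 7 lower (0.0479%). The interaction contrast of the same fit set the day 7 difference against the mean of the other 3 days, and 306 genes passed (2.1%), 75 with a more positive (0.514%) and 231 with a more negative difference (1.58%). Of the 498 genes called at day 7, 276 passed this test too (59 rises and 217 falls). Both tests use the same 5 libraries, so their directions are not independent. Prrc2a, which fell by 2.61 at day 7, differed by -0.30 at day 1, 0.05 at day 3 and -0.15 at day 14. Ms4a4c, which rose by 3.03, differed by 0.34, -1.12 and -2.34. Junb, which fell by 1.40 at day 7, rose by 1.24 at day 14 (SE 0.24, adjusted p = 0.0156). Day 7 was also the day of the deepest libraries, and leaving out DTR library 2 left 2 and 17 genes past the interaction test.

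**Figure D4:**
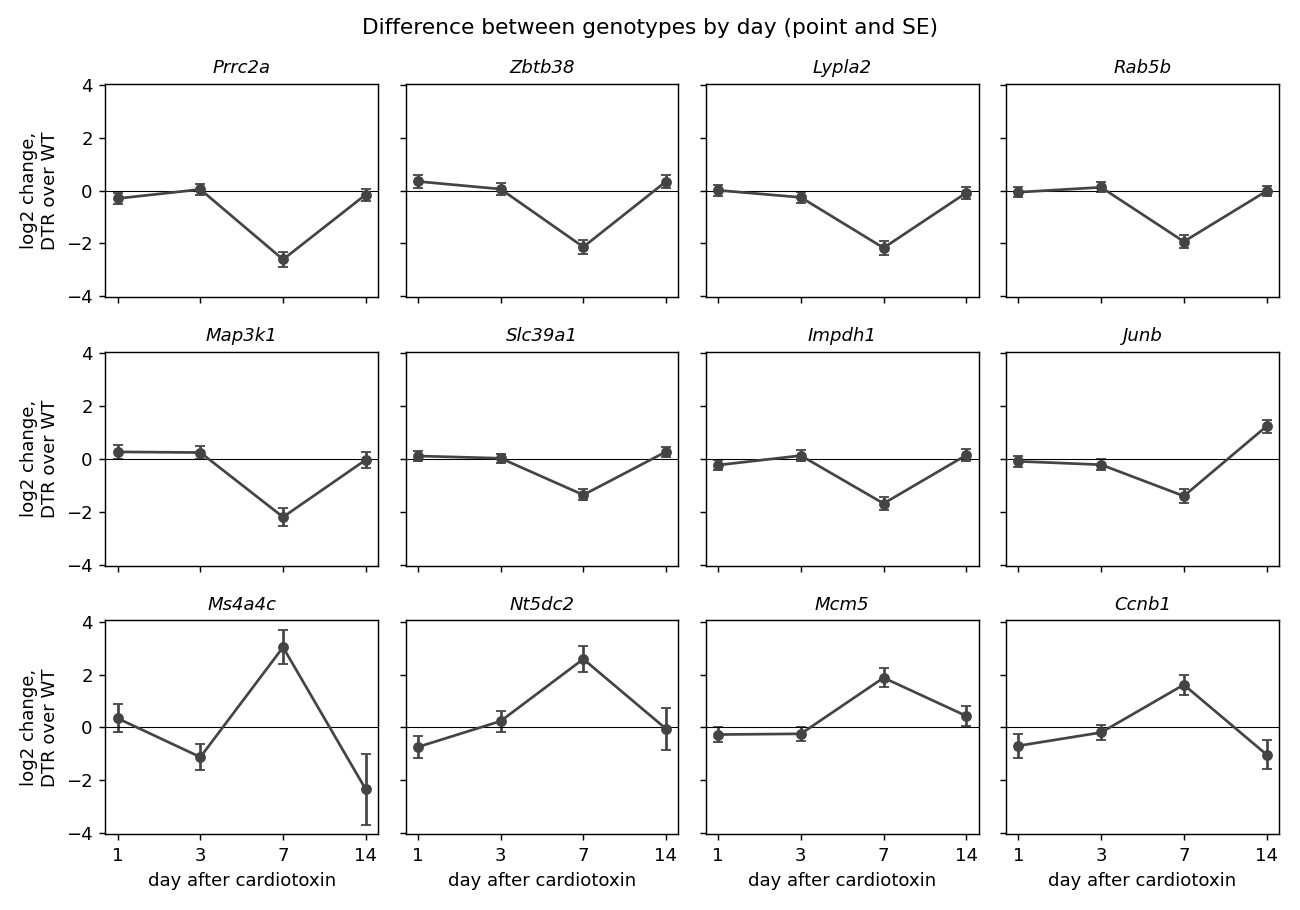
Log2 change (DTR over WT) with its SE at days 1, 3, 7 and 14 (spaced evenly) for 12 genes past the interaction test. The 8 genes in the upper rows were called lower at day 7 (Prrc2a -2.61, Zbtb38 -2.13) and the 4 in the lowest row higher (Ms4a4c 3.03, Mcm5 1.88), while Junb was lower at day 7 and higher at day 14 (1.24).

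The separate experiment at day 7, in which no library is shared with the comparison above, changed many more genes. With rIL-17A against PBS 2355 of the same 14601 genes rose (16.1%) and 2014 fell (13.8%). Of the 12 classical IL-17 response genes tested 1 rose and 3 fell with rIL-17A, with a median of -0.35. Ccl2 and Mmp3 were among those that fell. Of the 145 genes that rose on depletion 88 fell with rIL-17A (60.7%) and 2 rose. Of the 353 that fell on depletion 182 rose with rIL-17A (51.6%) and 1 fell. As shares of the cytokine lists these are 4.37% of the genes that fell and 7.73% of those that rose. Among genes of at least 10 CPM, a limit chosen after the data were seen, 79 of 110 rises fell with rIL-17A (71.8%, beside 22.7% of all such genes) and 135 of 177 falls rose (76.3%, beside 20.8%). Prrc2a was at 2.28 and 6.21 CPM with PBS and 55.4 and 63.8 with rIL-17A, a change of 3.84 (SE 0.38, adjusted p = 1.41e-06). Trim72 was at 0.380 and 1.09 CPM with PBS and 90.6 and 87.5 with rIL-17A, and Anxa11 at 0.253 and 0.776 against 103 and 89.6. These were among the widest gaps of the named genes, and in both the depleted and the PBS muscle the levels were near 1 CPM. Mylk2 was at 23.7 and 65.8 CPM with PBS and 477 and 363 with rIL-17A. In the opposite direction, Ms4a7 was at 133 and 77.3 CPM with PBS and 23.9 and 24.5 with rIL-17A, Mfap5 at 286 and 175 against 54.4 and 62.5, and Psmd14 at 225 and 175 against 91.3 and 82.9. Among the rises, Ms4a4c, Stat2 and Mki67 did not pass with rIL-17A. Zbtb38 (change 0.61, adjusted p = 0.231) and Slc39a1 (0.21, adjusted p = 0.547), falls that held under all 14 alternatives, did not pass either. Nor did the falls Jun, Bhlhe40, Mdm2, Sesn2 and Gk.

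Libraries of the cytokine experiment also differed in other measures. The rIL-17A libraries had counts in 19178 and 19976 genes against 18162 and 16951 with PBS, and 47084 and 34253 unscaled CPM of mitochondrial transcripts against 92442 and 84959. On depletion the DTR libraries had 22369 and 21496 genes detected, against 22417 to 34392 in WT, and 82103 and 75375 mitochondrial CPM against 66333 to 75741, so DTR library 1 was close to WT library 1 in genes detected and DTR library 2 within the WT range of mitochondrial CPM. The part of these measures in the shared genes was not tested. Olfactory and vomeronasal genes were low in all 4 cytokine libraries, at 12.1 to 25.8 CPM, and 46 of the genes that fell on depletion had no count there. With alternatives chosen after the data were seen, the share of falls that rose with rIL-17A was 62% without WT library 3, 49.2% with an offset for GC content and length and 71.6% with the replicate number as a block, and the share of rises that fell was 34.5%, 55.5% and 31.8%.

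**Figure D5:**
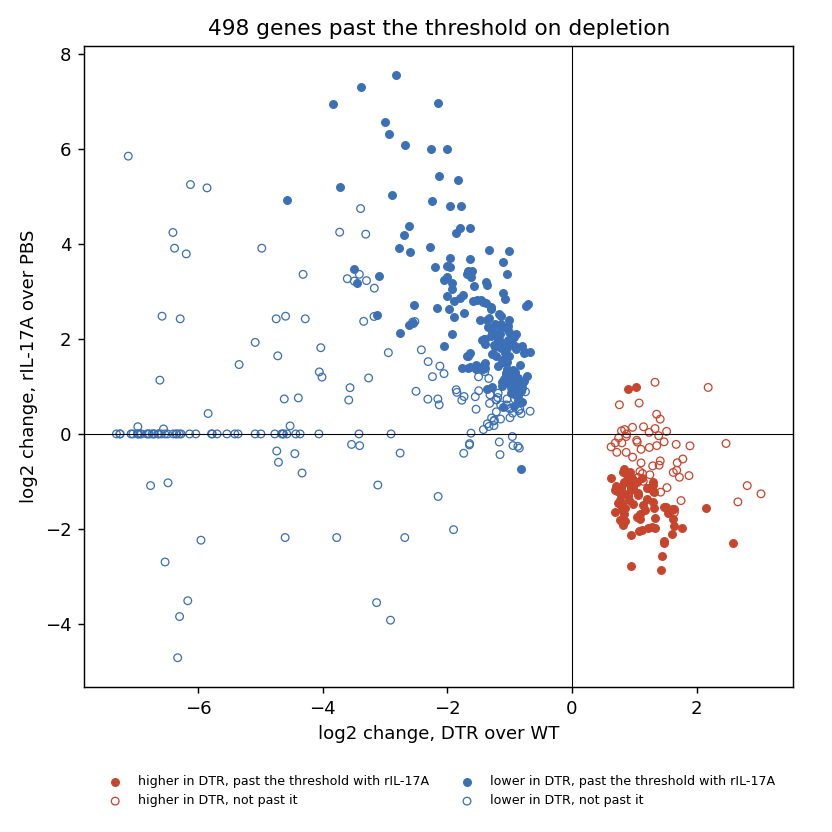
Log2 change with rIL-17A (over PBS) against log2 change on depletion (DTR over WT) for the 498 genes called on depletion, red for rises and blue for falls, filled where the gene also passed with rIL-17A. Filled points lie in the opposite quadrants except for 2 rises and 1 fall, and the open points on the horizontal line at 0 are mostly genes without a count in the cytokine libraries.

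The genes that differed at day 7 were also placed on the course of repair in wild-type muscle from day 3 to day 14, a comparison that shares no library with day 7 but shares the estimate of the spread. From day 3 to day 14, 3071 of the tested genes rose (21%) and 3662 fell (25.1%). Of the 145 genes that rose on depletion 113 fell over that course (77.9%) and 6 rose. Of the 353 that fell on depletion 124 rose (35.1%) and 62 fell (17.6%). Ms4a7 fell by 5.85 from day 3 to day 14, Mcm5 by 3.54 and Psmb8 by 3.10 on the log2 scale, while Mylk2 rose by 2.32 and Atg9a by 1.97. Others went against this order. Junb and Lypla2, lower in depleted muscle, also fell over the course, by 2.51 and 0.92. The mean log2 CPM of genes that rise over the course less that of genes that fall was 0.86, 0.82 and 1.06 in the WT libraries at day 7 and 0.84 and 0.22 in DTR. DTR library 1 lay within the WT range and DTR library 2 below it, with an exact permutation p of 0.2 (2-sided), where 3 against 2 libraries cannot go below 0.1.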

How the data were processed

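PolyA RNA of whole tibialis anterior was measured in 27 libraries, of which 5 (day 7, toxin-treated) make the comparison. The authors deposited raw counts per gene symbol. The tools named, per the submitters' processing notes, are Subread 2.0.0, featureCounts and STAR 2.7.3a, with mm10 as build. Strand, annotation and the treatment of duplicate or multiply mapped reads were not given in the sources used here, so values of overlapping or near-identical genes are uncertain. Counts were fitted in 1 edgeR 4.0.16 model (R 4.3.3, TMM, robust quasi-likelihood F-test, Benjamini-Hochberg adjusted p under 0.05) over the 23 time-course libraries in 8 groups, and the 4 cytokine libraries in a second. Members needed 10 counts in 2 of 5 libraries. An SE is the change over the root of F.

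Named genes were the 12 largest changes in each direction among non-overlapping genes of at least 5 CPM without Gm, Rik or accession names, up to 4 called members of each of 56 lists with the smallest p (or 2 where none passed), the 8 smallest p of the interaction and 11 fixed genes. Some genes that this rule names are not reported here. Members and lists were chosen with earlier results of these data known. Fits were tested on simulated data. Exact permutation tests were used for single values. Positions come from GENCODE (GRCm38). Replicate pairs differed by a chi-square of 11.7 to 22.5 per degree of freedom, so none was a copy. The replicates are independent biological ones per the series' design text. PCR copies cannot be removed. Alternatives were other scalings and filters, DESeq2 1.42.0, all 27 libraries, day 7 alone, each library left out, a replicate block and a GC and length offset.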

Additional observations from a re-analysis of the deposited data

Results flagged for a closer look

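These results stand out because the difference between genotypes at day 7 was itself tested against the mean of the same difference at days 1, 3 and 14 (the interaction contrast of the edgeR fit). It passed for 306 genes, and the values below are the day 7 log2 change less the mean of the other days. No outlier test applies to groups of 3 and 2.

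Among genes lower at day 7, the departures with the smallest adjusted p were those of Prrc2a (-2.47, adjusted p = 9.68e-05), Zbtb38 (-2.38, adjusted p = 9.68e-05), Lypla2 (-2.06) and Rab5b (-1.94). They were followed by Map3k1 (-2.36), Slc39a1 (-1.50), Impdh1 (-1.70) and Junb (-1.71). In genes of fibres and membranes the values were -3.84 for Trim72, -2.94 for Atg9a, -2.47 for Anxa11, -2.08 for Mylk2, -1.31 for Lrp4 and -1.61 for Trim63. In metabolic and stress genes they were -1.39 for Dgat2, -1.88 for Osgin1, an oxidative stress response gene, and -1.05 for Mdm2. In transcription factors they were -1.23 for Bhlhe40, -1.30 for Bhlhe41, -2.35 for Zbtb16 and -2.30 for Lbh. In receptor, axoneme and calcium channel genes they were -6.00 for Vmn2r53, -4.72 for Olfr620, -4.01 for Dnah8, -3.41 for Hydin and -3.30 for Ryr2.

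Among genes higher at day 7, the values of myeloid genes were 4.07 for Ms4a4c, 2.38 for Ms4a6c, 2.33 for Ccl12, 1.89 for Ms4a7, 1.84 for Fcgr2b and 2.22 for Otulinl. Those of dividing cells were 2.25 for Ccnb1 and 1.90 for Mcm5, beside 2.77 for Nt5dc2. The others were 2.22 for Otulinl, 2.11 for Snai2, 1.80 for Isg20, 0.94 for Fabp4 and 1.96 for Crybg1. Crybg1 was the weakest of these, with an adjusted p of 0.0498.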

How the results depend on the processing

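With 2 depleted mice, single libraries set how many genes pass. At day 7, leaving out each library in turn gave 4 to 248 rises and 39 to 507 falls, and for the interaction with day 2 to 128 and 17 to 360. Other results were as follows, with rises first. Library size alone gave 24 and 610 at day 7 (it moved the median of all genes from 0.06 to -0.14 and the falls to 96.2% of calls), 22 and 517 for the interaction and 1310 and 6968 for wild-type day 3 to day 14. DESeq2 gave 250 and 653 at day 7 and 176 and 502 for the interaction. Day 7 alone gave 6 and 95, with falls at 94.1% of calls. Without a filter the interaction gave 193 rises, and the median at day 7 was -0.20. Genes of at least 10 CPM, a limit added after the data were seen, gave 177 falls. With rIL-17A, leaving out a library gave 1083 to 2709 rises and 759 to 2256 falls. The receptor sum (DTR minus WT) was -1.44 to -0.23 CPM over single libraries left out.

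Correlations of same-numbered deviations were 0.03 and 0.06. The deviations of 2 DTR libraries mirror each other, so these values cannot say whether replicate numbers pair the libraries. With the replicate block, 22 genes rose and 102 fell at day 7, 24 and 65 for the interaction and 1886 rose from day 3 to day 14.

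The 68 named genes called at day 7 kept their direction under all 14 alternatives, and 8 kept their calls under all. Groups of most called genes did not overlap, so the kept directions were largely fixed by that. Uncalled genes changed sign as follows. Myog was at -0.076 with library size alone, -0.0050 on day 7 alone, -0.068 with the block and -0.12 with the GC and length offset, and Myod1 at -0.036 with library size alone. Over the fits that each leave out 1 library, Myog ranged from -0.11 to 0.43, Myod1 from -0.089 to 0.34, Adgre1 from -0.20 to 0.55, Tnnt2 from -0.089 to 1.68, Mmp3 from -0.16 to 1.39 and Col1a1 from -1.07 to 0.22, with the lowest value of Myod1, Adgre1, Tnnt2 and Mmp3 without DTR replicate 2.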

Other observations

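Some genes had similar levels in depleted and in PBS-treated muscle and higher levels in both other day 7 groups, when all 9 day 7 libraries were put on 1 scale with the other whole-muscle libraries. The groups come from separate experiments, and toxin, injections and experiment cannot be told apart, so the values are given side by side with no test. Trim72 was at 4.87, 6.20 and 23.4 CPM in toxin-treated WT, 1.21 and 0.452 in DTR, 0.475 and 1.38 with PBS and 108 and 101 with rIL-17A. Anxa11 was at 5.77, 4.46 and 14.4 CPM in WT, 0.753 and 1.47 in DTR, 0.316 and 0.983 with PBS and 123 and 104 with rIL-17A. Atg9a was at 16.1, 18.6 and 43.6 CPM in WT, 2.71 and 4.18 in DTR, 3.64 and 2.16 with PBS and 86.2 and 95.4 with rIL-17A. Mylk2 was at 168, 189 and 241 CPM in WT, 65.5 and 30.4 in DTR, 29.6 and 83.4 with PBS and 566 and 420 with rIL-17A. In all 4 genes the toxin-treated WT libraries lay between the PBS and the rIL-17A libraries. Other falls did not have this order. Zbtb38 was at 78 to 132 CPM in WT and 65.6 and 44.9 with rIL-17A. Slc39a1 was at 288 to 364 CPM in WT and 197 and 161 with rIL-17A. Rises differed in the same way. Ms4a7 was at 18.6 to 26.2 CPM in WT, 36.9 and 103 in DTR and 166 and 97.9 with PBS. Xaf1 was at 10.7 to 18.6 CPM in WT, 25.5 and 35.7 in DTR and 22.6 and 15.9 with PBS.

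Among rises not described above, Gpr153, an orphan receptor, was at 5.22, 4.10 and 1.49 CPM in WT and 9.35 and 17.3 in DTR. Cyp4f18, a fatty acid hydroxylase of myeloid cells, was at 2.05, 1.67 and 3.29 CPM in WT and 5.14 and 9.82 in DTR. Psat1, an enzyme of serine synthesis, was at 14, 9.88 and 7.17 CPM in WT and 19.9 and 25.4 in DTR. The rule for the largest changes, which named Gpr153 and Cyp4f18, takes only genes whose groups do not overlap. All 3 separated the groups in both DTR libraries and lost their calls without DTR library 2.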
